A study of Homo sapiens with 12 samples.

Results

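RNA polymerases I, II and III are the enzymes that transcribe the nuclear genome, and the genes of their subunits were followed here in HEK293T cells made to express a synthetic transcriptional activator. The members were all protein-coding genes of the count table whose symbol starts with POLR1, POLR2 or POLR3, with CD3EAP, TWISTNB and ZNRD1 taken under their current names POLR1G, POLR1F and POLR1H. The rule found 33 genes among 60604 gene identifiers and used no measured value. They divide into 6 subunits of polymerase I (Pol I), 2 shared by Pol I and III, 5 shared by all 3 enzymes, 10 genes of Pol II and 10 of Pol III. Another 14 rows with a POLR symbol start belonged to no protein-coding gene and were left out. CRCP, the gene of a Pol III stalk subunit, falls outside the rule because of its name.

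HEK293T is a human embryonic kidney cell line with the simian virus 40 large T antigen. Cells given sgRNA-dCas9-VP160-P2A-EGF with 6 guide RNAs for the CD34 promoter (called "with guides"), cells given sgRNA-dCas9-VP160-P2A-EGF without those guides ("dCas9-VP160 alone") and cells that received no plasmid but the transfection reagent were each sequenced in 4 libraries. dCas9-VP160 is a Cas9 protein without nuclease activity fused to viral activation domains, so that a guide can bring an activator to a promoter. All cells were harvested 48 h after Lipofectamine treatment in 100 mm dishes, with 5.4 pmol of plasmid in the transfected groups, and libraries were made from 1 ng of total RNA with the SMART-Seq HT kit, whose cDNA primer binds poly(A) tails. The 4 libraries of a group come from 2 experiments on separate batches of cells, each with 2 technical replicates. Since every transfected dish received both a plasmid and dCas9-VP160, an effect of the DNA and one of the protein cannot be told apart. The sources used here do not give the share of cells that took up plasmid, and in such bulk samples fewer expressing cells and less RNA per cell cannot be told apart.

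Pol I transcribes the large ribosomal RNA precursor, Pol II transcribes protein-coding genes and many non-coding RNAs, and Pol III makes transfer RNAs, a small ribosomal RNA and other short RNAs. Each enzyme is built around a pair of large catalytic subunits that form the active centre, on an assembly platform of smaller subunits, with a stalk at its surface. A set of small subunits is common to all of them, and Pol I and III also share an assembly pair. Pol III carries in addition a heterotrimer that opens the promoter, and the synthesis of all 3 enzymes is tied to cell growth.

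Library totals were 6750035 to 11932244 gene counts, and a count of 3 corresponded to 0.250 to 0.439 CPM. Levels in CPM are relative to the library total after TMM scaling, and intervals and floors cover counting error only. CD34 served as a check of the labels, with 94.6 to 107 CPM with guides, 0.775 to 1.02 CPM with dCas9-VP160 alone and 1.53 to 2.48 CPM without plasmid. Mitochondrially encoded transcripts took 5.57 to 7.50% of counts with guides, 5.14 to 5.63% with dCas9-VP160 alone and 8.31 to 8.78% without plasmid. Of 10 markers of the 293T line, 5 were at or above 5 CPM in every library, and their summed level was 2059 to 2175, 2016 to 2225 and 1819 to 2059 CPM in the same order of groups. Of 17 markers of other cell types, 12 stayed under 1 CPM in every library, and HBB had no count. Their summed level was 16.7 to 18.3 CPM with guides, 16.1 to 17.3 CPM with dCas9-VP160 alone and 19.6 to 22.4 CPM without plasmid. The part of these shifts in the results was not tested, apart from a fit whose scaling leaves out the mitochondrial genes. That fit called 16 members higher and 5 lower with dCas9-VP160 alone against no plasmid, close to the counts below. Of the 19633 genes it tested, 5178 were higher and 4951 lower.

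In cells with dCas9-VP160 alone, 16 of 32 tested subunit genes were higher and 4 were lower than in cells without plasmid, and 12 were not called. Genes were called by edgeR's quasi-likelihood test at an adjusted p under 0.05, with the Benjamini-Hochberg adjustment over all 19662 genes tested. The background was broad, since 26.6% of all genes tested were called higher in that comparison and 24.6% lower (51.2% in either direction). With guides against no plasmid, 15 members were higher, 6 were lower and 11 were not called, beside 26.7% of all genes higher, 25.9% lower and 52.6% in either direction. The median log2 fold change of the members was 0.13 with guides and 0.15 with dCas9-VP160 alone, against -0.0158 and -0.00196 over all genes tested. Both comparisons share the libraries without plasmid, so they are not independent of each other. The missing test is that of POLR2J2, which had no count in any library. The sources used here do not say how reads that match its near-identical copies were counted, so 0 counts set no limit on its level. In each of 30 alternative settings of the analysis, 10 of the 16 higher calls and 1 of the 4 lower calls with dCas9-VP160 alone were kept, and likewise 9 of 15 and 1 of 6 with guides. POLR1C, POLR2C, POLR2F, POLR2H, POLR3A, POLR3C, POLR3F and POLR3K were among the kept higher calls in both groups, and POLR2J3 was the kept lower call in both. Changes were small: POLR2F aside, which rests on few counts, the log2 fold changes ran from -0.76 to 0.64 with guides and from -0.56 to 0.78 with dCas9-VP160 alone.

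**Figure D1:**
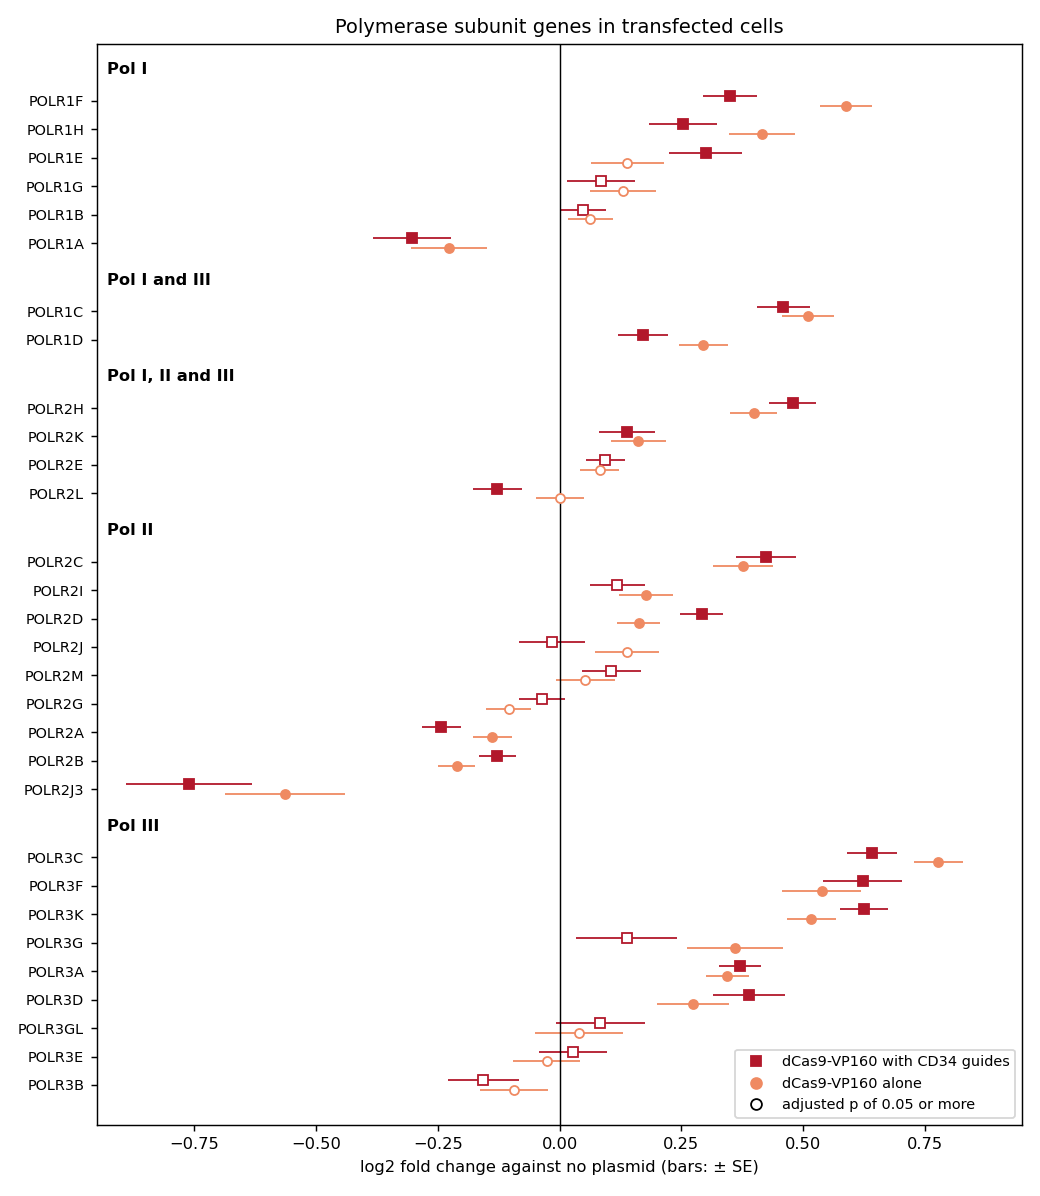
Log2 fold change against no plasmid of 30 subunit genes with an approximate SE, grouped by enzyme, with guides (squares) and with dCas9-VP160 alone (circles); filled symbols have an edgeR adjusted p under 0.05. POLR2F (2.10 and 2.41) is off the scale and POLR2J2 had no counts. Most filled symbols lie to the right of 0, with POLR3C furthest right at 0.64 and 0.78, and POLR2J3, POLR1A, POLR2A and POLR2B lie to the left in both groups.

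By enzyme, 5 of 10 Pol III genes were higher and 1 lower with guides, and 6 were higher and 0 lower with dCas9-VP160 alone. The counts by enzyme stand beside 26.7% of all genes tested higher and 25.9% lower with guides, and 26.6% and 24.6% with dCas9-VP160 alone. Both genes shared by Pol I and III were higher in both groups. Of the 6 Pol I genes, 3 were higher and 1 lower with guides, and 2 were higher and 1 lower with dCas9-VP160 alone. Of the 5 subunits common to all enzymes, 3 were higher and 1 lower with guides, while with dCas9-VP160 alone 3 were higher and 2 were not called. Of 9 tested Pol II genes, 2 were higher and 3 lower with guides, and 3 were higher and 3 lower with dCas9-VP160 alone. Median log2 fold changes for Pol III genes were 0.25 with guides and 0.31 with dCas9-VP160 alone, and for Pol II genes -0.02 and 0.05. Whether the enzymes differ from each other was not tested.

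Promoter windows were available for 24 of the 33 members in RefSeq (GRCh38.p14), each running from 250 bases before to 50 bases after a start site, or 30 windows in all. Those without a window include POLR1E, POLR2G, POLR2I, POLR2J, POLR2J3, POLR2K, POLR3D and POLR3G. Of 7 short motifs searched on both strands, the ETS core CCGGAAG lay in the windows of 9 of the 24 members (37.5%), against 16.5% of 15843 protein-coding genes. The genes with it were POLR1B, POLR1C, POLR2C, POLR2D, POLR2F, POLR2J2, POLR2M, POLR3A and POLR3C. They include 6 of the 12 members with a window that were higher with dCas9-VP160 alone, 2 of 8 that were not called and none of the 3 that were lower (POLR1A, POLR2A and POLR2B). The higher members without the ETS core in a window include POLR1F, POLR2H, POLR3F and POLR3K. The NRF1 motif lay in 33.3% of members and 9.67% of all genes, and the E-box CACGTG in 16.7% and 10.9%. By call with dCas9-VP160 alone, the NRF1 motif lay in 3 of the 12 higher members, 2 of the 8 not called and 2 of the 3 lower. Whether a motif goes with the changes was not tested. A CCAAT box (CCAAT) was found in 25% of members and 42.1% of all genes, and TATAAA in 4.17% and 12.4%. The amino acid response core TGATGNAA and the NF-kB motif GGGANTTCC were in no member window, against 3.60% and 2.74% of all genes. Windows of the same gene can overlap, as those of POLR2F and POLR3C do, and a match is only a run of letters. The windows printed were chosen after the values were seen, and another POLR3C window, not printed, has no ETS match. Those of 3 genes that rose in both groups have the ETS core in capitals. These windows and that of POLR2A, which fell in both groups and has no such match, read as follows.
POLR3C promoter, chr1:145823950-145824249, plus strand: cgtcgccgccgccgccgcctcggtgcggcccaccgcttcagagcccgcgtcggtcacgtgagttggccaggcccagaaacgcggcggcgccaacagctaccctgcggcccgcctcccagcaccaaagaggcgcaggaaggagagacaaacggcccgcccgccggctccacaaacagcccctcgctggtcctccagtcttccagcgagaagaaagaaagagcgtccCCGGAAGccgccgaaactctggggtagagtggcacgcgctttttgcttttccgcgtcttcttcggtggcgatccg
POLR1C promoter, chr6:43516839-43517138, plus strand: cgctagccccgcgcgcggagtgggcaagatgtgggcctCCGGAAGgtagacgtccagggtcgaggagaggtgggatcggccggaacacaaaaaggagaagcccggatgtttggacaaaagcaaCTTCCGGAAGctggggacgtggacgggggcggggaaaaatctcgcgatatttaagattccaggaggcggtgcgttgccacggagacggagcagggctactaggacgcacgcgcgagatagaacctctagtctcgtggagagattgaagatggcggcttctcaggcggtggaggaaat
POLR3A promoter, chr10:78029466-78029765, minus strand: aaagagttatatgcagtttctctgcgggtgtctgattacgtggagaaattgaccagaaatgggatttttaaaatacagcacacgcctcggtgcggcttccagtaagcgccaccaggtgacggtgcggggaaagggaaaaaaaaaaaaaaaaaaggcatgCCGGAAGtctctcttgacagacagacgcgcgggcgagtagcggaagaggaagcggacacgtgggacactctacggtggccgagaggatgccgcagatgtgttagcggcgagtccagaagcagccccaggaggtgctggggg
POLR2A promoter, chr17:7484116-7484415, plus strand: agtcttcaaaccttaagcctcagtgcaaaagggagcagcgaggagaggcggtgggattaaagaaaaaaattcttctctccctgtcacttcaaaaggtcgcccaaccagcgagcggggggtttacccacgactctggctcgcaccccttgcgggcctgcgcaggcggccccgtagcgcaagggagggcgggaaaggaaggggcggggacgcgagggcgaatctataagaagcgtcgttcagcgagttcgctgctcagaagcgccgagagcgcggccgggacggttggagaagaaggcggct
Counting from the start site, the match begins at base -25 in POLR3C and at base -91 in POLR3A. POLR1C has matches at -212, -127 and -124, and the last of these overlap on opposite strands.

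POLR3C, POLR3F and POLR3K had the largest changes among the Pol III genes in both transfected groups, and POLR3C and POLR3F belong to the heterotrimer that helps to melt the promoter. POLR3C (ENSG00000186141, chromosome 1, 145824088 to 145842505, plus strand), a winged-helix subunit of that trimer, measured 111, 101, 111 and 98.8 CPM with guides, 111, 119, 117 and 119 CPM with dCas9-VP160 alone, and 62.1, 67.8, 72.1 and 70.0 CPM without plasmid, in the order replicate 1 and 2 of experiment 1, then of experiment 2. Every transfected library lay above every library without plasmid. Against no plasmid, the fitted log2 fold change was 0.64 with guides (SE 0.05, edgeR adjusted p = 3.37e-11) and 0.78 with dCas9-VP160 alone (SE 0.05, adjusted p = 6.17e-13). POLR3F (ENSG00000132664, chromosome 20, 18467127 to 18484643, plus strand), its partner in the trimer, measured 24.9, 26.3, 30.6 and 29.8 CPM with guides, 25.7, 22.8, 32.8 and 24.7 CPM with dCas9-VP160 alone, and 16.9, 16.4, 19.8 and 19.9999 CPM without plasmid, again without overlap between transfected and untransfected libraries. POLR3F thus had log2 fold changes against no plasmid of 0.62 with guides (SE 0.08, edgeR adjusted p = 3.12e-07) and 0.54 with dCas9-VP160 alone (SE 0.08, adjusted p = 2.89e-06).

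The third place in the trimer is taken by either of 2 paralogs, POLR3G, known from stem cells and tumour lines, or POLR3GL, which most differentiated cells use. POLR3G measured 12.1, 13.5, 15.9 and 13.8 CPM with guides, 15.6, 15.8, 14.2 and 18.6 CPM with dCas9-VP160 alone, and 13.1, 12.04, 14.6 and 11.4 CPM without plasmid, and the groups overlapped. On the log2 scale the difference from no plasmid was 0.14 with guides (SE 0.10, edgeR adjusted p = 0.275) and 0.36 with dCas9-VP160 alone (SE 0.10, adjusted p = 0.00337). The call with dCas9-VP160 alone was lost without replicate 2 libraries (log2 fold change 0.12, edgeR adjusted p = 0.529), without experiment 2 (0.32, 0.0818) and without the no-plasmid libraries of experiment 2 (0.30, 0.0655), and it missed narrowly without replicate 2 of dCas9-VP160 alone in experiment 2 (0.27, 0.0507). POLR3GL measured 14.5, 21.7, 20.2 and 18.5 CPM with guides, 17.2, 22.0, 17.7 and 17.3 CPM with dCas9-VP160 alone, and 18.7, 16.5, 16.8 and 19.4 CPM without plasmid, with the groups intermingled. Its log2 fold changes against no plasmid were 0.08 with guides (SE 0.09, edgeR adjusted p = 0.467) and 0.04 with dCas9-VP160 alone (SE 0.09, adjusted p = 0.745). Per kb of exon, POLR3G stood at 0.278 to 0.374 of the POLR3GL level with guides and 0.322 to 0.482 with dCas9-VP160 alone. Without plasmid it stood at 0.263 to 0.389, so POLR3GL was higher per kb in all 12 libraries. These ratios rest on merged exon lengths of 4.019 kb for POLR3G and 1.799 kb for POLR3GL, which count the exons of all annotated isoforms. In CPM the genes were closer, and POLR3G was the higher in replicate 2 of experiment 2 with dCas9-VP160 alone (18.6 against 17.3 CPM). About 21.2% of POLR3GL exon bases are shared with another gene on the same strand, so its level is uncertain.

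The catalytic pair of Pol III did not move together. POLR3A (ENSG00000148606, chromosome 10, 77969251 to 78029545, minus strand), the largest subunit, measured 147, 157, 145 and 136 CPM with guides, 149.7, 143, 150.1 and 133 CPM with dCas9-VP160 alone, and 108, 122.9, 105 and 116 CPM without plasmid, and transfected libraries did not overlap those without plasmid. Against no plasmid, the fitted log2 fold change was 0.37 with guides (SE 0.04, edgeR adjusted p = 6.30e-08) and 0.34 with dCas9-VP160 alone (SE 0.04, adjusted p = 2.06e-07). POLR3B, the second largest subunit, measured 30.2, 32.7, 30.4 and 30.6 CPM with guides, 29.6, 32.9, 31.8 and 35.4 CPM with dCas9-VP160 alone, and 31.2, 36.5, 32.7 and 37.6 CPM without plasmid, and all groups overlapped. POLR3B thus had log2 fold changes against no plasmid of -0.16 with guides (SE 0.07, edgeR adjusted p = 0.0712) and -0.09 with dCas9-VP160 alone (SE 0.07, adjusted p = 0.279).

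POLR3K (ENSG00000161980, chromosome 16, 46407 to 53628, minus strand), the small subunit that takes part in RNA cleavage and termination, measured 132, 132, 137 and 133 CPM with guides, 133, 128, 113 and 121 CPM with dCas9-VP160 alone, and 92.7, 86.9, 87.3 and 82.8 CPM without plasmid. The lowest of the 8 transfected libraries was at 113 CPM, against at most 92.7 CPM without plasmid. On the log2 scale the difference from no plasmid was 0.62 with guides (SE 0.05, edgeR adjusted p = 4.11e-11) and 0.52 with dCas9-VP160 alone (SE 0.05, adjusted p = 1.66e-09). POLR3D, which pairs with POLR3E and in yeast acts in initiation and termination, was higher in both groups (0.39 with guides, edgeR adjusted p = 8.03e-05; 0.27 with dCas9-VP160 alone, adjusted p = 0.00312). For dCas9-VP160 alone its log2 fold change was 0.08 in experiment 1 and 0.43 in experiment 2, and the call was lost without experiment 2 (edgeR adjusted p = 0.707). It was also lost without replicate 2 of the no-plasmid cells in experiment 2 (0.20, edgeR adjusted p = 0.0532). POLR3E was not called in either group (0.03 and -0.03).

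**Figure D2:**
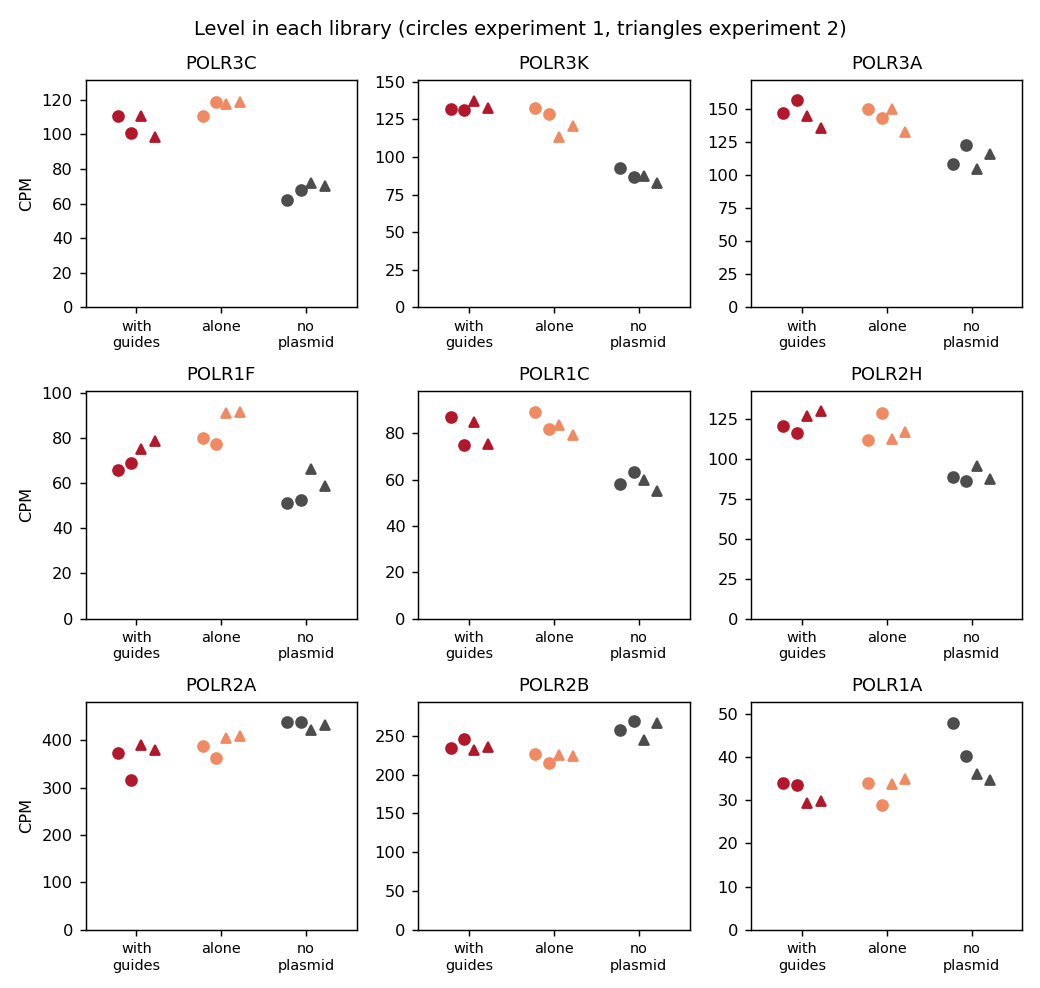
TMM-scaled CPM of 9 subunit genes in each of the 12 libraries, with guides, with dCas9-VP160 alone and without plasmid from left to right; circles are experiment 1, triangles experiment 2, and every axis starts at 0. POLR3C, POLR3K, POLR3A, POLR1C and POLR2H are higher in all 8 transfected libraries than in the 4 without plasmid, POLR2A is lower in all 8, and POLR1F, POLR2B and POLR1A overlap in at least 1 of the transfected groups.

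The assembly pair shared by Pol I and III rose in both groups. POLR1C, its larger partner, was at 74.8 to 87.1 CPM with guides, 79.1 to 89.3 CPM with dCas9-VP160 alone and 55.0 to 63.3 CPM without plasmid. Its log2 fold changes against no plasmid were 0.46 with guides (SE 0.05, edgeR adjusted p = 5.49e-08) and 0.51 with dCas9-VP160 alone (SE 0.05, adjusted p = 7.97e-09). About 18.2% of POLR1C exon bases lie opposite other genes. POLR1D, the smaller partner, reached log2 fold changes of 0.17 with guides (SE 0.05, edgeR adjusted p = 0.00658) and 0.30 with dCas9-VP160 alone (SE 0.05, adjusted p = 1.89e-05). Its libraries overlapped between groups, and levels were higher in experiment 2 in each group. The call with guides was lost without experiment 2 (0.11, edgeR adjusted p = 0.272) and without replicate 2 of the no-plasmid cells in that experiment (0.14, adjusted p = 0.0785).

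Of the Pol I genes, the stalk subunit POLR1F (ENSG00000105849, chromosome 7, 19695462 to 19709087, minus strand), through which the enzyme meets its initiation factor RRN3, changed most. It measured 65.6, 69.0, 75.0 and 78.8 CPM with guides, 80.0, 77.3, 90.9 and 91.3 CPM with dCas9-VP160 alone, and 51.1, 52.4, 66.1 and 58.7 CPM without plasmid. The libraries with dCas9-VP160 alone lay above all those without plasmid, while the lowest library with guides, at 65.6 CPM, was just under the highest without plasmid, at 66.1 CPM. Against no plasmid, the fitted log2 fold change was 0.35 with guides (SE 0.05, edgeR adjusted p = 5.47e-06) and 0.59 with dCas9-VP160 alone (SE 0.05, adjusted p = 5.73e-10). POLR1H, the Pol I subunit for RNA cleavage, was likewise higher in both groups (0.25, edgeR adjusted p = 0.00358, and 0.42, adjusted p = 1.15e-05), and its libraries did not overlap those without plasmid. Without experiment 2 the call with guides was lost (0.18, edgeR adjusted p = 0.165), as it was without replicate 2 libraries (0.23, adjusted p = 0.0626). About 24.5% of its exon bases are shared with an antisense pseudogene. POLR1E and POLR1G form the heterodimer on the surface of the enzyme. POLR1E was higher with guides (0.30, edgeR adjusted p = 0.00143) and had a value of 0.14 with dCas9-VP160 alone (adjusted p = 0.127). The first of these calls was lost without experiment 1 (0.25, edgeR adjusted p = 0.0688). POLR1G was not called in either (0.08 and 0.13), and 45.1% of its exon bases lie opposite other genes, mostly ERCC1.

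The largest subunit of Pol I went the other way from most of its partners. POLR1A (ENSG00000068654, chromosome 2, 86020216 to 86106155, minus strand) measured 34.1, 33.6, 29.4 and 29.9 CPM with guides, 34.1, 28.8, 33.9 and 34.9 CPM with dCas9-VP160 alone, and 47.9, 40.2, 36.1 and 34.8 CPM without plasmid. The libraries with guides were all below those without plasmid, and the highest library with dCas9-VP160 alone exceeded the lowest without plasmid. POLR1A thus had log2 fold changes against no plasmid of -0.30 with guides (SE 0.08, edgeR adjusted p = 0.00235) and -0.23 with dCas9-VP160 alone (SE 0.08, adjusted p = 0.0164). Within experiments, the values for dCas9-VP160 alone were -0.43 in experiment 1 and -0.03 in experiment 2, and those for guides were -0.35 and -0.25. The call with dCas9-VP160 alone was lost without replicate 1 of the no-plasmid cells in experiment 1 (-0.16, edgeR adjusted p = 0.112) or without replicate 2 of dCas9-VP160 alone in that experiment (-0.17, 0.0701). That with guides was lost without both no-plasmid libraries of experiment 1 (-0.16, edgeR adjusted p = 0.173). POLR1B, the second catalytic subunit, measured 112, 111, 115 and 109 CPM with guides, 124, 106, 108 and 112 CPM with dCas9-VP160 alone, and 112, 113, 102 and 108 CPM without plasmid, with full overlap. On the log2 scale the difference from no plasmid was 0.05 with guides (SE 0.05, edgeR adjusted p = 0.402) and 0.06 with dCas9-VP160 alone (SE 0.05, adjusted p = 0.268).

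Among the subunits common to all 3 enzymes, POLR2H (ENSG00000163882, chromosome 3, 184361718 to 184368596, plus strand) changed most on well-covered counts. It measured 121, 116, 127 and 129.7 CPM with guides, 112, 129, 113 and 117 CPM with dCas9-VP160 alone, and 88.4, 86.1, 95.3 and 87.0 CPM without plasmid, so that the transfected libraries started at 111.7 CPM and those without plasmid ended at 95.3 CPM. Its log2 fold changes against no plasmid were 0.48 with guides (SE 0.05, edgeR adjusted p = 4.72e-09) and 0.40 with dCas9-VP160 alone (SE 0.05, adjusted p = 1.19e-07). POLR2K, a zinc-binding subunit of the assembly platform, was called higher in both groups at small values (0.14, edgeR adjusted p = 0.0455, and 0.16, adjusted p = 0.0190). Its call with guides was lost in 16 of 30 alternative settings, 6 of which left out a single library, and that with dCas9-VP160 alone in 9, 2 of them by the loss of replicate 2 of experiment 2 without plasmid or with dCas9-VP160 alone (edgeR adjusted p = 0.067 and 0.0614). POLR2E was not called (0.09 and 0.08), but it was called higher with guides in 10 of 30 alternative settings and with dCas9-VP160 alone in 3. POLR2L, another platform subunit, was lower with guides (-0.13, edgeR adjusted p = 0.0338) and stood at 0.00 with dCas9-VP160 alone. That call is weak: it was lost in 12 of 30 alternative settings and its sign changed in another, without replicate 1 libraries (0.03, edgeR adjusted p = 0.754). The single libraries whose loss removed it were replicate 1 of both experiments with guides, of both without plasmid, and of experiment 1 with dCas9-VP160 alone.

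POLR2F (ENSG00000100142, chromosome 22, 37952607 to 38041915, plus strand), a small subunit at the base of the clamp of each enzyme, had the largest fold change and the fewest reads. Its counts were 12, 13, 8 and 9 with guides, 22, 11, 10 and 14 with dCas9-VP160 alone, and 2, 4, 3 and 2 without plasmid. No library without plasmid reached the lowest transfected one. The ratio of summed counts per library total against no plasmid was 4.34 with guides (95% exact interval 2.20 to 9.36, from 42 and 11 counts) and 5.39 with dCas9-VP160 alone (2.80 to 11.4, from 57 and 11 counts). EdgeR's adjusted p was 2.82e-04 with guides and 2.53e-05 with dCas9-VP160 alone. At 0.173 ± 0.0328, 0.217 ± 0.0792 and 0.0397 ± 0.00440 CPM per kb in these groups (SD, n = 2 experiments), its transcript counted far fewer reads than those of the other shared subunits, and the reason was not tested. Only 1.36% of its exon bases are shared with other genes.

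The catalytic pair of Pol II was lower in transfected cells. POLR2A (ENSG00000181222, chromosome 17, 7484366 to 7514616, plus strand), the largest subunit, whose repetitive C-terminal domain is phosphorylated through the transcription cycle, measured 373, 316, 391 and 380.1 CPM with guides, 387, 362, 404 and 409.9 CPM with dCas9-VP160 alone, and 439, 439, 421 and 433 CPM without plasmid. All transfected libraries lay below all those without plasmid. Against no plasmid, the fitted log2 fold change was -0.24 with guides (SE 0.04, edgeR adjusted p = 1.12e-05) and -0.14 with dCas9-VP160 alone (SE 0.04, adjusted p = 0.00488). In dCas9-VP160 alone the values within experiments were -0.21 and -0.06 for experiments 1 and 2, and the call was lost without experiment 1 (edgeR adjusted p = 0.36) and without replicate 2 libraries (-0.11, adjusted p = 0.0754). POLR2B (ENSG00000047315, chromosome 4, 56977722 to 57031168, plus strand), the second largest subunit, measured 235, 246, 231 and 235 CPM with guides, 227, 215, 225 and 224 CPM with dCas9-VP160 alone, and 257, 269, 245 and 266 CPM without plasmid. The libraries with dCas9-VP160 alone were below those without plasmid, and those with guides overlapped them by the narrow gap between 245.7 and 244.7 CPM. POLR2B thus had log2 fold changes against no plasmid of -0.13 with guides (SE 0.04, edgeR adjusted p = 0.00602) and -0.21 with dCas9-VP160 alone (SE 0.04, adjusted p = 3.82e-05). The call with guides was lost in 9 of 30 alternative settings, among them the loss of replicate 2 of the no-plasmid cells in experiment 2 (-0.09, edgeR adjusted p = 0.146).

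The smaller Pol II subunits were mixed. POLR2C, a partner in the assembly platform, was at 61.3 to 66.3 CPM with guides, 58.3 to 66.3 CPM with dCas9-VP160 alone and 44.5 to 53.9 CPM without plasmid. On the log2 scale the difference from no plasmid was 0.42 with guides (SE 0.06, edgeR adjusted p = 1.75e-06) and 0.38 with dCas9-VP160 alone (SE 0.06, adjusted p = 9.47e-06). POLR2D and POLR2G form the stalk, and POLR2D was higher in both groups (0.29 with guides, edgeR adjusted p = 3.64e-06; 0.16 with dCas9-VP160 alone, adjusted p = 0.00333). The call with dCas9-VP160 alone was lost without experiment 2 (0.14, edgeR adjusted p = 0.103) and without replicate 1 libraries (0.12, adjusted p = 0.135). POLR2G was not called in either (-0.04 and -0.10), but with dCas9-VP160 alone it was called lower in 10 of 30 alternative settings, RLE scaling among them (-0.11, edgeR adjusted p = 0.0495). POLR2I, a subunit known for transcription fidelity, was higher with dCas9-VP160 alone (0.18, edgeR adjusted p = 0.00915) and had a value of 0.12 with guides (adjusted p = 0.0813). Its call was lost in 7 of 30 alternative settings, among them the loss of replicate 2 of the no-plasmid cells in experiment 2 (0.15, edgeR adjusted p = 0.0846), and 79.6% of its exon bases are shared with other genes. POLR2M, a Pol II-associated protein that can hold the enzyme back, was not called (0.11 and 0.05).

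The POLR2J family comprises the platform partner of POLR2C and near-identical copies of its gene on chromosome 7. POLR2J measured 37.8, 34.4, 36.4 and 34.6 CPM with guides, 38.6, 45.5, 35.3 and 40.9 CPM with dCas9-VP160 alone, and 39.8, 34.8, 38.5 and 33.7 CPM without plasmid, and all groups overlapped. Its log2 fold changes against no plasmid were -0.02 with guides (SE 0.07, edgeR adjusted p = 0.868) and 0.14 with dCas9-VP160 alone (SE 0.07, adjusted p = 0.0812). POLR2J3 (ENSG00000168255, chromosome 7, 102537918 to 102572653, minus strand) measured 6.45, 8.29, 5.29 and 5.70 CPM with guides, 8.52, 8.05, 6.66 and 6.34 CPM with dCas9-VP160 alone, and 12.7, 11.0, 9.37 and 10.9 CPM without plasmid, so that every transfected library was below every one without plasmid. Against no plasmid, the fitted log2 fold change was -0.76 with guides (SE 0.13, edgeR adjusted p = 1.70e-05) and -0.56 with dCas9-VP160 alone (SE 0.12, adjusted p = 3.93e-04). This was the largest fall among the members in both groups, and it is uncertain, since 76.2% of POLR2J3 exon bases are shared on the same strand with other genes, one of them a second POLR2J3 entry. POLR2J2 had 0 counts in all 12 libraries.

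Differences of the subunit genes between the transfected groups were small in size. With guides against dCas9-VP160 alone, edgeR called 0 members higher and 1 lower, beside 4.16% of all genes higher, 3.41% lower and 7.56% in either direction. At an unadjusted p under 0.05, 4 of the 32 members tested were higher and 8 lower, beside 10.8% of all genes higher and 10.3% lower. DESeq2 called 0 members higher and 0 lower, beside 2.94% of the 9716 genes to which it gave an adjusted p higher and 0.823% lower. The called member was POLR1F, whose values stand above, with a log2 fold change of -0.24 (SE 0.05, edgeR adjusted p = 0.00500). It was -0.22 in experiment 1 and -0.25 in experiment 2, and the libraries overlapped between the groups. The call was lost without either experiment (edgeR adjusted p = 0.0874 without experiment 1 and 0.161 without experiment 2), without replicate 1 libraries (-0.19, 0.179) and without the libraries with guides of experiment 2 (-0.21, 0.127). The other 31 values ran from -0.32 for POLR2F to 0.16 for POLR1E, whose edgeR adjusted p was 0.205. A missed threshold does not show that the groups are alike.

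**Figure D3:**
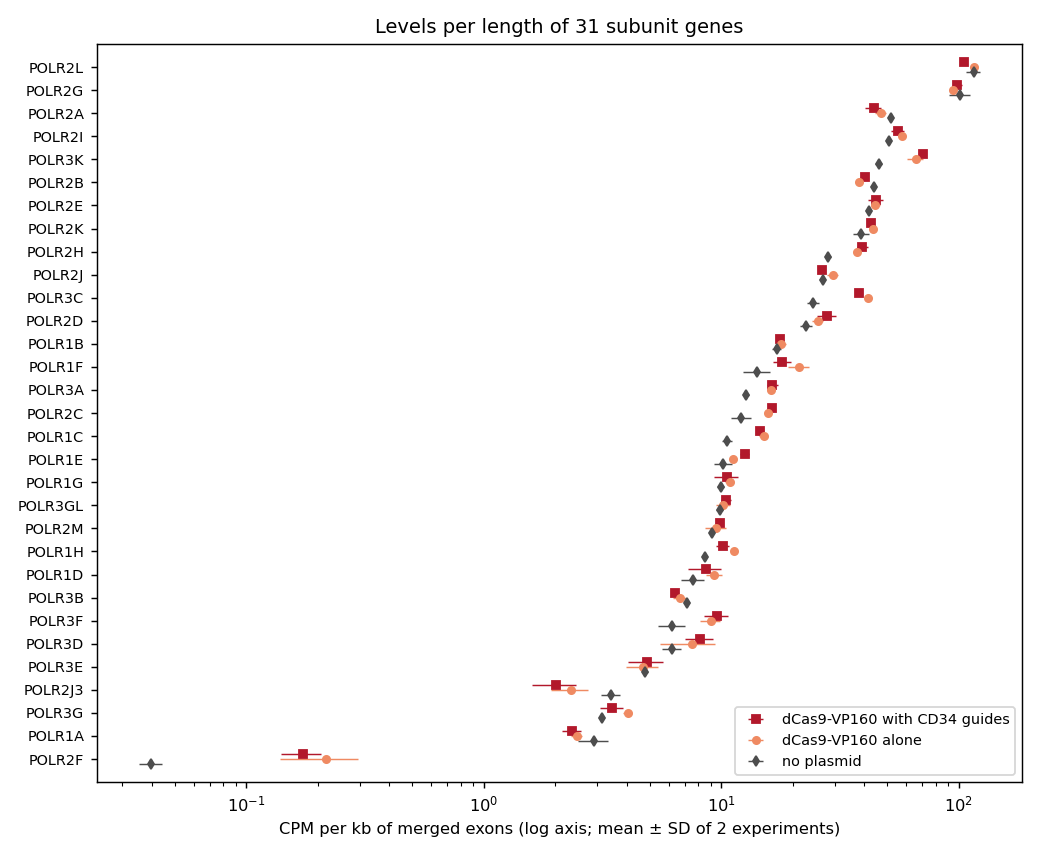
Mean level of 31 subunit genes per kb of merged exons on a log axis, with the SD of 2 experiments, with guides (squares), with dCas9-VP160 alone (circles) and without plasmid (diamonds), ordered by the level without plasmid. POLR2L and POLR2G lead at 94.1 to 115 CPM per kb, and POLR2F is last at 0.0397 to 0.217 CPM per kb.

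Levels between genes are compared per kb of merged exon length, which counts the exons of all annotated isoforms and so understates genes with long rare exons. POLR2L stood at 105 ± 2.92, 115 ± 4.52 and 115 ± 7.87 CPM per kb with guides, with dCas9-VP160 alone and without plasmid (SD, n = 2 experiments), the highest of all members, and 22.5% of its exon bases lie opposite CD151. The Pol II stalk gene POLR2G followed at 98.7 ± 4.19, 94.1 ± 2.61 and 101 ± 10.0 CPM per kb. Their spreads overlapped with guides and without plasmid. POLR3K was the third in both transfected groups, at 70.8 ± 1.22 and 65.8 ± 5.02 CPM per kb, and the fifth without plasmid, at 45.9 ± 1.68 CPM per kb, where it did not separate from POLR2B beyond the spread. POLR2A was the sixth with guides, the fifth with dCas9-VP160 alone and the third without plasmid. These places lie within the spread: POLR2A did not separate from POLR2E in either transfected group or from POLR2I without plasmid.

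The catalytic pairs had unequal transcript levels. POLR2A and POLR2B were close, at 43.7 ± 3.47 and 40.1 ± 0.974 CPM per kb with guides and 51.6 ± 0.905 and 43.9 ± 0.863 CPM per kb without plasmid. POLR3A was above POLR3B, at 16.4 ± 0.901 and 6.39 ± 0.158 CPM per kb with guides and 12.7 ± 0.427 and 7.13 ± 0.179 CPM per kb without plasmid. POLR1A was far below POLR1B, at 2.35 ± 0.224 and 17.7 ± 0.106 CPM per kb with guides and 2.90 ± 0.421 and 17.1 ± 0.751 CPM per kb without plasmid.

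Summed over its 10 genes, Pol III took 663 to 709 CPM with guides, 676 to 701 CPM with dCas9-VP160 alone and 556 to 589 CPM without plasmid, and the transfected libraries did not overlap the others. The summed Pol II level was 1139 to 1196, 1164 to 1195 and 1224 to 1238 CPM in the same order, lower in all transfected libraries. The 6 Pol I genes summed to 319 to 327, 322 to 348 and 295 to 303 CPM. For the pair shared by Pol I and III the sums were 165 to 194, 184 to 196 and 136 to 158 CPM. The subunits common to all 3 enzymes summed to 518 to 554, 518 to 576 and 472 to 542 CPM, with overlap. These sums weigh abundant genes most and carry no test. All members together held 0.282 to 0.291% of counts with guides, 0.293 to 0.2998% with dCas9-VP160 alone and 0.268 to 0.274% without plasmid. Between the experiments, members moved by a median log2 difference of 0.00 with guides, -0.05 with dCas9-VP160 alone and 0.00 without plasmid. Single members ranged more widely, from -0.43 to 0.32, from -0.71 (POLR2F, on few counts) to 0.54 and from -0.30 to 0.26 in the same order.

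**Figure D4:**
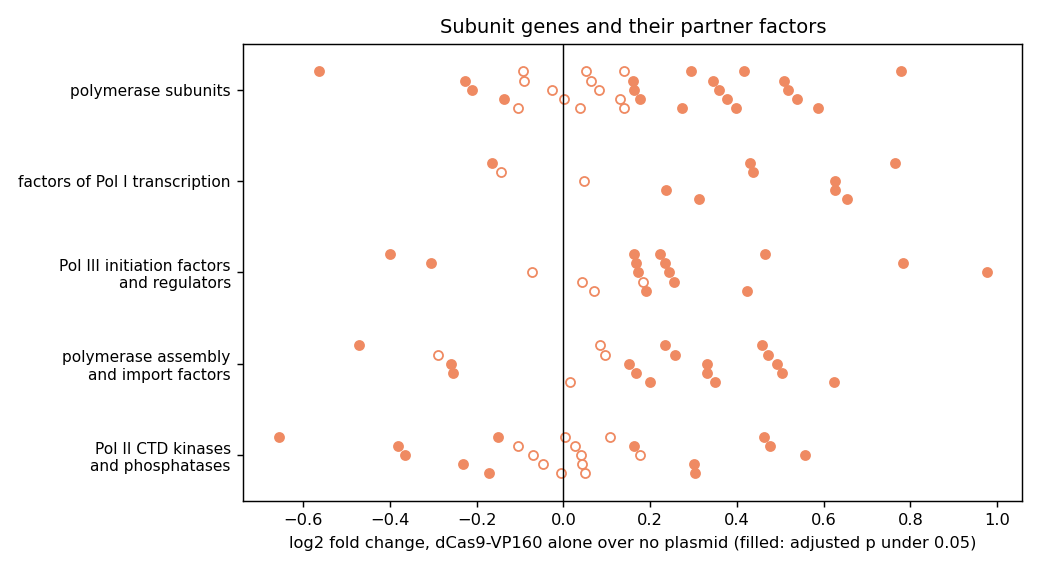
Log2 fold change, dCas9-VP160 alone over no plasmid, of 31 tested subunit genes (POLR2F, at 2.41, is off the scale) and of 4 lists of partner factors; each point is a gene, and filled points have an edgeR adjusted p under 0.05. Filled points lie mostly to the right of 0 for the subunits, the Pol I and Pol III factors and the assembly factors, and on both sides for the kinases and phosphatases of the Pol II C-terminal domain.

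Partner factors of the polymerases were counted beside their subunits, and their counts stand against 26.7% of all genes tested higher and 25.9% lower with guides, and 26.6% and 24.6% with dCas9-VP160 alone. Of 11 factors of Pol I transcription, 6 were higher and 2 lower with guides, and 8 were higher and 1 lower with dCas9-VP160 alone, at median log2 fold changes of 0.36 and 0.43. Of these, 6 act in initiation (RRN3, UBTF and TAF1A to TAF1D), and 2 were higher and 2 lower with guides, while 3 were higher and 1 lower with dCas9-VP160 alone. The other 5 (TTF1, PTRF, SIRT7, TCOF1 and NOLC1) act in termination, chromatin or the nucleolus, and 4 were higher with guides and 5 with dCas9-VP160 alone. NOLC1, a nucleolar phosphoprotein that binds Pol I, was at 302 ± 1.78 CPM with dCas9-VP160 alone and 196 ± 4.20 CPM without plasmid (log2 fold change 0.62, edgeR adjusted p = 2.97e-13, n = 2 experiments, SD). TAF1D, a subunit of the Pol I promoter selectivity factor, had a value of 0.76 (edgeR adjusted p = 1.61e-12), and RRN3, which makes Pol I competent to initiate, one of 0.63 (edgeR adjusted p = 2.75e-11). PTRF, a transcript release factor better known from caveolae as CAVIN1, stood at 0.43 (edgeR adjusted p = 3.91e-08).

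Of 18 Pol III initiation factors and regulators, 9 were higher and 2 lower with guides, and 12 were higher and 2 lower with dCas9-VP160 alone, at medians of 0.15 and 0.19. GTF3A, the zinc finger factor for the small ribosomal RNA gene, was at 184 ± 35.1 CPM with dCas9-VP160 alone and 107 ± 21.0 CPM without plasmid (log2 fold change 0.78, edgeR adjusted p = 2.69e-14). SNAPC4, of the complex that activates small nuclear RNA genes, rose as well (0.46, edgeR adjusted p = 3.68e-07). GTF3C1 and GTF3C2, subunits of the factor that binds the internal promoters of transfer RNA genes, fell (-0.31, edgeR adjusted p = 8.69e-07, and -0.40, adjusted p = 1.02e-08).

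Of 20 factors that assemble polymerases in the cytoplasm or bring them into the nucleus, 14 were higher and 3 lower with guides, and 13 were higher and 3 lower with dCas9-VP160 alone, at medians of 0.18 and 0.22. RUVBL1 and RUVBL2, the ATPases of the co-chaperone complex that assembles the subunits, reached 0.50 (edgeR adjusted p = 9.72e-11) and 0.35 (adjusted p = 1.57e-08). SLC7A6OS, the human relative of a yeast polymerase import factor, reached 0.46 (edgeR adjusted p = 2.96e-07). TELO2, a scaffold that works with the same ATPases, fell (-0.47, edgeR adjusted p = 4.47e-08).

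Of 23 kinases, phosphatases and regulators of the Pol II C-terminal domain, 5 were higher and 7 lower with guides, and 6 were higher and 6 lower with dCas9-VP160 alone, shares close to those over all genes tested, at medians of -0.05 and 0.03. CDK7, the kinase that acts at initiation, stood at 0.48 (edgeR adjusted p = 1.14e-06), RPRD1B, which binds the domain, at 0.46 (adjusted p = 3.60e-07), and the phosphatase SSU72 at 0.30 (adjusted p = 1.22e-06). The small phosphatase CTDSP2 fell (-0.37, edgeR adjusted p = 5.65e-08). Among 5 genes of mitochondrial transcription, TFAM was the one called in dCas9-VP160 alone (0.45, edgeR adjusted p = 3.81e-08). TFAM packages mitochondrial DNA and takes part in its transcription. The other 4, the polymerase POLRMT among them, were not called.

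Few products of Pol III were counted. Of 11 such transcripts listed, 10 had a row and 3 passed the filter on low counts. BCYRN1, a brain cytoplasmic RNA, was at 2.75 ± 0.147 CPM with dCas9-VP160 alone and 6.32 ± 0.930 CPM without plasmid (edgeR adjusted p = 2.03e-06). VTRNA1-3, a vault RNA, was at 1.499 ± 0.849 CPM with dCas9-VP160 alone and 0.355 ± 0.137 CPM without plasmid (edgeR adjusted p = 1.63e-04), where the second value is near the level of 3 counts in 1 library. RN7SL2, of the signal recognition particle, was not called (-0.19).

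Shared exons bear on several members. The library kits named in the labels do not mark the strand, and the sources used here do not say whether counting used the strand. In 17 members under 5% of exon bases overlap another gene on either strand. Of these, 9 were higher and 2 lower with guides, and 8 were higher and 2 lower with dCas9-VP160 alone. In the other 16 the share ran from 5.29 to 79.6%. Of the 15 tested among them, 6 were higher and 4 lower with guides, and 8 and 2 with dCas9-VP160 alone. Over all genes tested, 26.7% were higher and 25.9% lower with guides, and 26.6% and 24.6% with dCas9-VP160 alone. POLR3A, POLR3C, POLR2H, POLR2A, POLR1A, POLR1B, POLR1D and POLR1F have no shared exon base. P-values rest on 2 batches of cells per group and on spread borrowed from other genes.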

How the data were processed

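The authors deposited raw read counts per gene, whole numbers with 1 column for each of 12 libraries. Per the submitters' processing notes, Trim Galore 0.3.7, STAR 2.6.0c with hg38, Picard 2.17.1 and DESeq2 1.16.1 were used (counting program and annotation release: not given in the sources used here). A further table of comparisons by the authors was not used. Gene types, coordinates and exon lengths came from GENCODE v29, matched by 56812 of 60604 identifiers.

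Technical replicates were summed to 6 libraries (n = 2 experiments per group), and 92 spike-in rows (up to 0.719% of counts) were left out. The test was edgeR 4.0.16 (R 4.3.3) with filterByExpr, TMM and a robust quasi-likelihood fit over 19662 genes, and the experiment, which the labels tie to 1 batch of cells, as block. The differences between experiments correlated at 0.612 to 0.628 between groups over 12857 genes. The SE is the absolute log2 fold change over the square root of F.

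On simulated counts of dCas9-VP160 alone against no plasmid over 19662 genes, 76% of changes of 1.25-fold and 98% of 1.5-fold were recovered, and 2.25% of calls were unchanged genes. Only 100 genes were changed at each fold size, all of them well covered, and spread followed the mean level without differences between genes. In the data 51.2% of all genes were called in this comparison, so these shares are not error rates of the calls above. Alternatives covered scaling, filter, DESeq2 1.42.0, block, unsummed libraries and libraries left out. Members, motifs and gene lists were chosen with earlier results of these data known. Values in every library are given for the 2 largest subunits of each enzyme, POLR3G, POLR3GL, the POLR2J family and the 6 largest called changes in each comparison; up to 4 genes per list are named, those of smallest p. Older symbols PTRF and WDR92 were matched through RefSeq synonyms after a first count of the lists, which then gained 1 called gene. The values of 1 member are not reported here singly, while the counts and sums over the members include it.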

Additional observations from a re-analysis of the deposited data

Results flagged for a closer look

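Each of 32 members was examined in each of 3 groups of 4 libraries. In 8 of these 96 sets the highest or lowest library stood apart from the rest. The cut-off gives about 1 in 20 by chance for 4 independent libraries. These are 2 technical replicates in each of 2 experiments, so that rate need not hold here. With guides, POLR1H was at 42.6 CPM in replicate 2 of experiment 2 and at 35.4 to 35.9 CPM in the others, and the call of POLR1H with guides was kept without that library. In the same library POLR2M was at 61.4 CPM, against 65.2 to 65.7 CPM in the other libraries with guides. POLR3B was at 32.7 CPM in replicate 2 of experiment 1 with guides, against 30.2 to 30.6 CPM in the others. With dCas9-VP160 alone, replicate 2 of experiment 1 held POLR2I at 78.0 CPM, with 71.7 to 72.3 CPM in the others, and POLR3GL at 22.0 CPM, with 17.2 to 17.7 CPM in the others. POLR2K was at 69.6 CPM in replicate 1 of experiment 2 with dCas9-VP160 alone, against 75.0 to 75.7 CPM elsewhere in that group. Without plasmid, POLR1G was at 34.0 CPM in replicate 1 of experiment 2, with 36.9 to 37.4 CPM in the others. POLR3E was at 49.4 CPM in replicate 1 of experiment 1 without plasmid, against 43.9 to 44.7 CPM in the others.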

How the results depend on the processing

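With no replicate block for the experiment, the counts of members against no plasmid were 9 higher and 1 lower with guides and 10 higher and 1 lower with dCas9-VP160 alone, and 0 were lower with guides against dCas9-VP160 alone. In that fit 16.4% of all genes were higher and 14.6% lower with guides against no plasmid, and 15.4% and 12.9% with dCas9-VP160 alone. Between the transfected groups it called only 1 gene higher and 0 lower of 19662, so 0 members there says nothing particular to them. With the technical replicate number added to the replicate block, 15 members were higher and 5 lower with guides, and 16 and 4 with dCas9-VP160 alone. Between the transfected groups 1 member was lower. That fit tested 17557 genes and called 4983 higher and 5000 lower with guides, and 4911 and 4734 with dCas9-VP160 alone. Between the transfected groups it called 780 genes higher and 666 lower. DESeq2 called 12 members higher and 2 lower with guides, 11 higher and 3 lower with dCas9-VP160 alone, and 0 lower between the transfected groups. Of all genes, it called 19.5% higher and 14.5% lower with guides against no plasmid, and 17.2% and 13.1% with dCas9-VP160 alone. Between the transfected groups its shares were 2.94% higher and 0.823% lower. RLE scaling called 977 of 19662 genes higher with guides against dCas9-VP160 alone, and TMM without mitochondrial genes 988 of 19633. Each called 1 member among them, POLR2D (0.14 on the log2 scale under both, edgeR adjusted p = 0.046 and 0.0457). Over the 22 settings that left out libraries, the counts ran from 12 to 17 higher and 3 to 7 lower with guides, and from 13 to 18 higher and 3 to 5 lower with dCas9-VP160 alone. With guides against dCas9-VP160 alone they ran from 0 to 1 higher and 0 to 4 lower. The 3 lower calls with guides came without experiment 2 and without the libraries with guides of experiment 2. The 4 lower calls between the transfected groups came without both no-plasmid libraries of either experiment, or without replicate 1 of the no-plasmid cells in experiment 2. Where an arm of the block held 1 summed library, that library was assumed to vary like the other groups. Calls over all genes moved as well. Without replicate 1 libraries, 16 members were higher and 4 lower with guides, beside 3939 and 3638 of 17666 genes tested. Without replicate 2 libraries, 12 and 5 stood beside 4231 and 3823 of 17348. With dCas9-VP160 alone, the first fit called 17 and 3 members beside 3915 and 3513 genes. The second called 13 and 5 beside 4122 and 3550.

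POLR2L changed sign in 2 settings with a call in the main fit or in the alternative. With dCas9-VP160 alone its main value lay at 0.00014, so a sign change there means little. Its log2 fold change with dCas9-VP160 alone was -0.15 (adjusted p = 0.0449) without replicate 2 libraries, and with guides it was 0.0286 (adjusted p = 0.754) without replicate 1 libraries. Elsewhere 116 member values lost a call and 59 gained one, and 2703 kept their side of the threshold; a sign change of a value not called under either setting was counted among these. For guides against dCas9-VP160 alone, 78.1% of all genes called by DESeq2 were higher, against 54.9% by edgeR. The cause of these changes was not tested. POLR2F and most of the listed Pol III transcripts had few counts or none, which limits what can be read from them. The reason was not tested.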
